A study of Homo sapiens with 9 samples.

Results

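The expression of 10 genes of the NF-kappaB pathway was followed across 9 arrays of P493-6, an established line of human B lymphocytes. They are the subunits NFKB1, NFKB2, REL and RELB, the inhibitors NFKBIA, NFKBIE and TNFAIP3, and the target genes TRAF1, CFLAR and BCL2A1. The members were named by gene symbol, and every probe set whose only symbol in the platform annotation was 1 of these 10 was taken. That gave 32 of the 54675 probe sets of the array, and 10 of the 19775 genes with a probe set of their own.

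The labels describe 3 groups of this line by MYC expression, high (4 arrays), low (3 arrays) and none (2 arrays), on total RNA. No treatment, time or culture is stated for any group, and all groups share the same cell line. It is not stated whether replicates came from separate cultures, so the p-values cover the spread between these arrays alone, and that spread may be technical. As background, P493-6 carries a tetracycline-repressed MYC gene and an estrogen-dependent form of EBNA2, the Epstein-Barr virus factor that drives growth of infected B cells, so it is a model of 1 engineered, virus-transformed line.

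NF-kappaB factors are dimers of REL-family proteins that the IkB inhibitors hold in the cytoplasm until the IKK kinases mark the inhibitors for destruction. The freed dimers bind kappaB sites and switch on survival, adhesion and cytokine genes, together with their own inhibitors, which ends the response. In B cells the pathway is driven by CD40, BAFF, the antigen receptor and Toll-like receptors, and in Epstein-Barr virus-infected B cells also by the viral protein LMP1, a gene that EBNA2 switches on.

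The kappaB motif is the sequence these factors bind, so member promoter stretches that hold a match to it are printed first. RefSeq promoter windows (GRCh38.p14, from 250 bases before to 50 after a transcript start) were at hand for 8 members in 16 windows, and RELB and NFKBIE are named only. The kappaB consensus, 10 bases long and searched on both strands, was found in 7 of these 16 windows, from NFKB1, NFKB2, REL, NFKBIA, TNFAIP3 and CFLAR, and in 3956 of all 35116 windows of that length (11.3%). No match stood in the 3 windows of TRAF1 and the window of BCL2A1. Each line runs 5′ to 3′ on the gene's own strand, and capitals mark the kappaB match.
NFKB1: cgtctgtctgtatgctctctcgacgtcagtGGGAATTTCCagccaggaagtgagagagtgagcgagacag
NFKB2: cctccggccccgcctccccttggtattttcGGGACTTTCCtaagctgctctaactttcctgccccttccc
REL: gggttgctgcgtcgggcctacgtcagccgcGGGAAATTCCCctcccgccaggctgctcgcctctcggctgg
NFKBIA: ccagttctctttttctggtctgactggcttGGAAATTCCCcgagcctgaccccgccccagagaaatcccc
TNFAIP3: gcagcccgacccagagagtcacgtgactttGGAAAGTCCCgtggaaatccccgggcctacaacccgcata
CFLAR: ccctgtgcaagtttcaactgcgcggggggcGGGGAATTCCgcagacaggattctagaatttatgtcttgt

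The stretch of NFKB1 is chr4:102501280-102501349 (plus strand), with the match starting 49 bases before the transcript start. That of NFKB2 is chr10:102395654-102395723 (plus strand, 21 bases before), from 1 of 2 windows of this gene that held 2 separate runs of matched bases each. The stretch of REL is chr2:60881497-60881567 (plus strand, 47 bases before), where 2 overlapping matches on opposite strands make a run of 11 capitals. NFKBIA is shown at chr14:35404791-35404860 (minus strand, 81 bases before) and TNFAIP3 at chr6:137867162-137867231 (plus strand, 67 bases before), where another match follows at 55 bases before the start. The stretch of CFLAR is chr2:201118589-201118658 (plus strand, 97 bases before), in 1 of its 4 windows. The starts used for NFKB2, TNFAIP3 and CFLAR lie inside the RefSeq extents of these genes, which begin further upstream, while those for NFKB1, REL and NFKBIA are the first base of the gene. The E-box CACGTG, a sequence that MYC with MAX is known to bind, stood in 1 of the 16 windows, that of TNFAIP3, and in 2548 of all windows (7.26%). Its letters can be read in the TNFAIP3 stretch before the capitals. A match describes the letters only, and binding was not measured.

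MYC itself read 12755, 11326, 15404 and 12186 on the high Myc arrays, 2126, 2526 and 1443 on the low Myc arrays, and 2803 and 416 on the arrays labelled no Myc. The library labelled no Myc replicate 1 therefore lay above every low Myc array, against its label, and each direction drawn from the no Myc group below includes it. High Myc exceeded no Myc by 3.57 ± 0.60 (log2 ± SE, limma, adjusted p = 0.00252), and this was called without either no Myc array. High Myc replicate 2 stood apart from its group: it correlated across all genes at 0.974 to 0.982 with the low Myc arrays and at 0.977 to 0.986 with the other high Myc arrays. Array medians were 75.3 to 80.3. The 3′ minus 5′ difference of GAPDH, a sign of RNA quality, was 0.25 and 0.42 (log2) on the no Myc arrays and 0.01 to 0.24 elsewhere. That of ACTB, a like control, was 0 and -0.01 on the no Myc arrays, within the -0.07 to 0.19 of the other arrays. Values are RMA intensities on a linear scale, 1 probe set a gene (the brightest on average), and differences were tested on log2 values. The number of arrays limits the precision.

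All 10 members had a lower mean in high Myc than in either other group. On the brightest probe set of each gene, REL, RELB, NFKBIA, NFKBIE and TNFAIP3 were lower in high than in no Myc by the test. TNFAIP3 sat at the threshold (limma, adjusted p = 0.0489). REL alone of the 10 was also called lower in high than in low Myc. With the median over probe sets, TNFAIP3 was not called against no Myc and TRAF1 and CFLAR were, while REL was not called against low Myc. Between low Myc and no Myc no member was called on its brightest probe set, though 4 dimmer probe sets, all of CFLAR, were lower in low Myc. Much of the variation lay inside the high Myc group, where replicate 2 was close to the low Myc arrays for most members. In RNA from bulk cells, fewer cells that express a gene and less of its RNA per cell cannot be told apart.

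**Figure D1:**
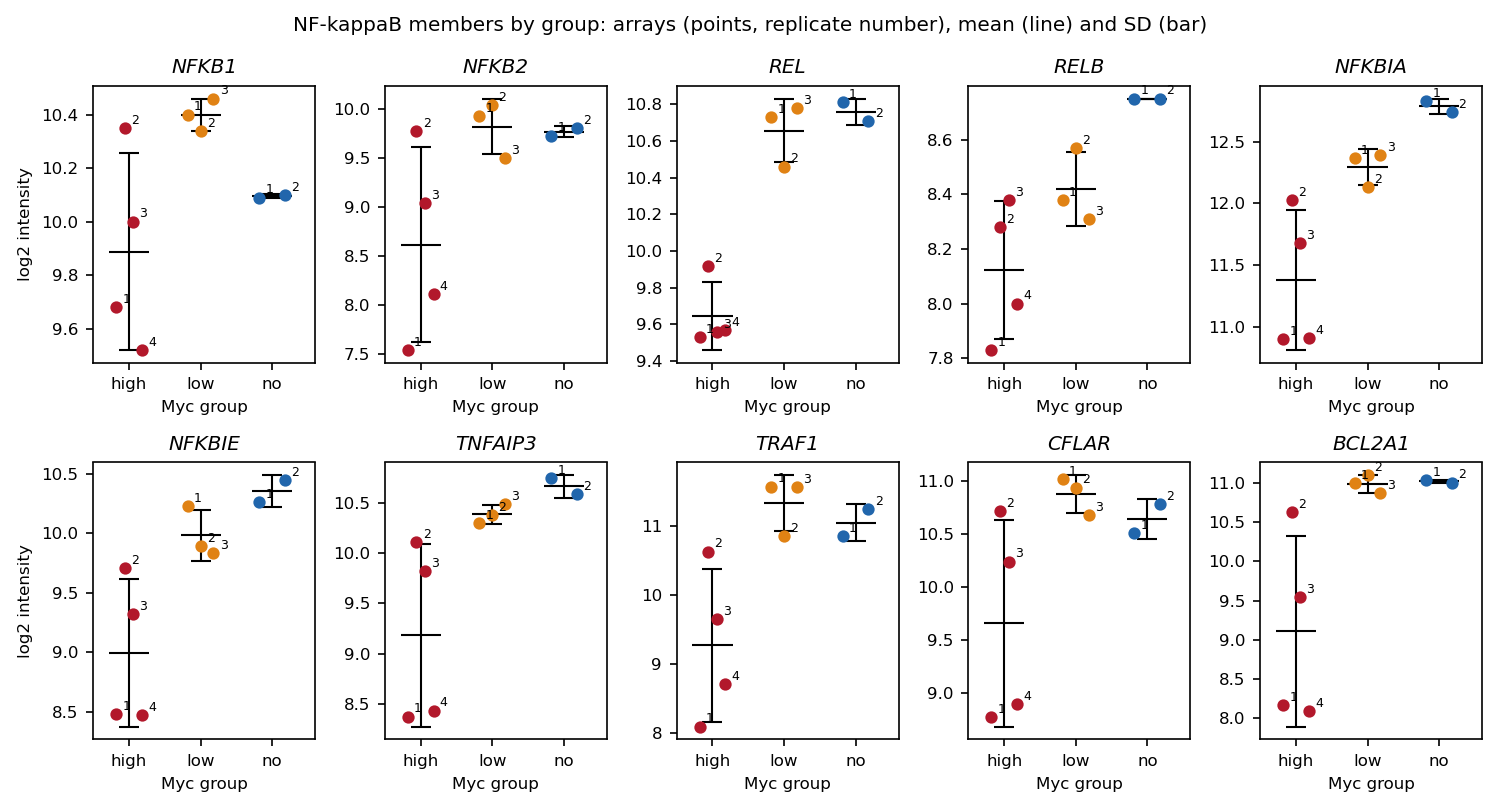
Log2 intensity of the 10 members (1 panel each) in the high, low and no Myc groups; points are arrays with their replicate number, lines are means and bars are SD (n = 4, 3 and 2). The 4 REL points of high Myc lie below all other arrays, while TRAF1 and BCL2A1 spread over more than 2.5 log2 units within high Myc.

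By the limma fit over all 19775 genes, 5 of the 10 members were lower and 0 higher in high than in no Myc, where 9.0% of all genes were lower and 14.2% higher. At an unadjusted p under 0.05 the members numbered 7, all lower, where 12.7% of all genes were lower. The median member difference was -1.26 (log2), and that of all genes -0.01. For low against no Myc, 0 of 10 members were called in either direction, beside 8.55% of all genes lower and 11.3% higher. At an unadjusted p under 0.05 these were 0 members, beside 28.7% of all genes in either direction. All 3 groups share 1 spread in this fit, so the wide high Myc spread of most members entered the SE here. For BCL2A1 that SE was 0.65, with SDs of 0.11 in low and 0.02 in no Myc. The 0 therefore does not show that low and no Myc were alike. With only the 2 groups in the fit, 0 members were called as well. Of the 10 differences 6 were below 0, and the median was -0.07. High against low Myc gave 1 member lower and 0 higher, with 1.27% of all genes lower and 2.33% higher. An unadjusted p under 0.05 was reached by 9 members, all lower, and by 6.42% of all genes in that direction. The median difference there was -1.11. The comparisons share their groups, so these values do not stand apart from each other.

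Over probe sets, 16 of the 32 were lower in high than in no Myc (7.79% of all probe sets), 4 in low against no Myc (7.66%) and 2, both of REL, in high against low Myc (0.525%). None was higher in any comparison by limma. Of the 16, 9 belonged to CFLAR. Groups were also compared by overlap alone: all high Myc arrays lay below all low Myc arrays for 6 of 10 members (4.66% of all genes) and below both no Myc arrays for 7 of 10 (17.8% of all genes). The 6 were REL, NFKBIA, NFKBIE, TNFAIP3, TRAF1 and BCL2A1, and RELB joined them against no Myc.

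**Figure D2:**
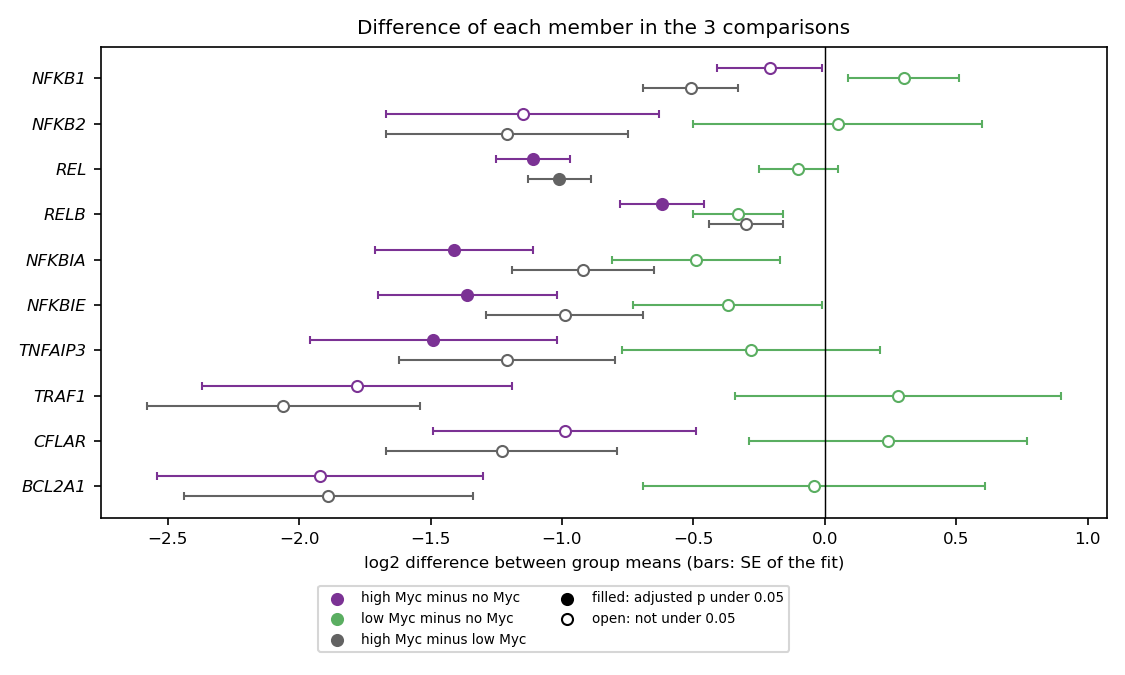
Log2 difference between group means for each member, with the SE of the fit, for high minus no Myc, low minus no Myc and high minus low Myc; filled points passed an adjusted p under 0.05. The 5 filled points of high minus no Myc run from -0.62 for RELB to -1.49 for TNFAIP3, and REL at -1.01 is the 1 filled point of high minus low Myc.

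The subunits came first. REL, which encodes c-Rel, the subunit most tied to lymphocyte proliferation, lies at chr2:60881574-60931612. Its brightest probe set (235242_at) read 738, 968, 756 and 762 in high Myc, 1704, 1407 and 1762 in low Myc and 1790 and 1677 in no Myc. Every high Myc array was below every other array, and the low and no Myc arrays overlapped. REL was 2.16-fold lower in high Myc (9.65 ± 0.18, mean log2 with SD, n = 4) than in no Myc (10.76 ± 0.07, n = 2), a difference of -1.11 ± 0.14 (SE, limma, adjusted p = 0.000629). Against low Myc (10.66 ± 0.17, n = 3) it was 2.02-fold lower (-1.01 ± 0.12, adjusted p = 0.00495). Both calls held in each of the 9 leave-one-out fits (fits without 1 array), with adjusted p of up to 0.0115 and 0.0286. The difference from low Myc was not called with the median of its probe sets (adjusted p = 0.0567), nor with the replicate numbers as a block. Low and no Myc differed by -0.10 ± 0.15 (adjusted p = 0.806).

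REL was read by 4 other probe sets, all lower on average in high Myc than in both other groups. Tested over all probe sets of the array, 206036_s_at (-1.15 ± 0.26, adjusted p = 0.0156) and 228812_at (-1.0 ± 0.21, adjusted p = 0.0119) were called against no Myc, and 228812_at also against low Myc (-1.02 ± 0.19, adjusted p = 0.04). The 228812_at intensities were 402, 657, 466 and 370 in high Myc, 1052, 835 and 928 in low Myc, and 919 and 926 in no Myc. Probe sets 206035_at and 239486_at were not called, at -1.13 ± 0.40 and -0.74 ± 0.41 against no Myc. On 239486_at the low Myc arrays, at 518, 482 and 412, lay above no Myc, at 362 and 231, which the other probe sets did not show.

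RELB, the subunit that pairs with p52 in the non-canonical pathway, lies at chr19:45001464-45038192. It read 228, 312, 334 and 257 in high Myc, 334, 381 and 317 in low Myc, and 430 and 431 in no Myc. The no Myc arrays were above all others, and the high and low Myc arrays overlapped. RELB was 1.54-fold lower in high Myc (8.13 ± 0.25 with SD, n = 4) than in no Myc (8.75, n = 2), at -0.62 ± 0.16 (limma, adjusted p = 0.0194). The call was lost without either no Myc array, with adjusted p of up to 0.112. Low Myc differed from no Myc by -0.33 ± 0.17 (adjusted p = 0.256) and high Myc from low Myc by -0.30 ± 0.14 (adjusted p = 0.35).

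NFKB2 encodes the p100 precursor of p52, and lies at chr10:102394110-102402529. It read 186, 880, 527 and 277 in high Myc, 975, 1056 and 724 in low Myc, and 852 and 897 in no Myc. Replicates 1, 3 and 4 of high Myc were below every other array, and replicate 2 lay among the low and no Myc arrays. The differences were -1.15 ± 0.52 against no Myc (limma, adjusted p = 0.176) and -1.21 ± 0.46 against low Myc (adjusted p = 0.214), and neither was called. Without high Myc replicate 2 both were, at -1.54 (adjusted p = 0.0202) and -1.59 (adjusted p = 0.0314). A dimmer probe set, 209636_at, read 79, 272, 154 and 100 in high Myc, 403, 345 and 252 in low Myc, and 267 and 252 in no Myc, and 211524_at stayed at 32 to 45 on all arrays.

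NFKB1, the p105 precursor of p50, lies at chr4:102501359-102617302. It was the subunit with the smallest difference between high and no Myc. The arrays read 818, 1303, 1026 and 734 in high Myc, 1347, 1293 and 1408 in low Myc, and 1089 and 1096 in no Myc. The low Myc arrays were above both no Myc arrays, and high Myc overlapped both groups. High Myc differed from no Myc by -0.21 ± 0.20 (limma, adjusted p = 0.605), low from no Myc by 0.30 ± 0.21 (adjusted p = 0.461) and high from low Myc by -0.51 ± 0.18 (adjusted p = 0.172). The last was called without high Myc replicate 2, at -0.66 (adjusted p = 0.0233).

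Of the 4 subunit genes, 2 were thus called lower in high than in no Myc, 0 in low against no Myc and 1 in high against low Myc. RELA, which encodes p65, the partner of p50 in the classical dimer and no member here, showed another order. It read 743, 743, 779 and 733 in high Myc, 708, 710 and 583 in low Myc, and 974 and 781 in no Myc. High Myc lay between the groups without overlap, at -0.22 ± 0.12 against no Myc (limma, adjusted p = 0.297) and 0.17 ± 0.11 against low Myc (adjusted p = 0.536). Low Myc differed from no Myc by -0.39, which was not called (adjusted p = 0.0667), and was called without no Myc replicate 2 (adjusted p = 0.0452).

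For each of the 3 inhibitors the groups stood apart on the brightest probe set, with high Myc lowest and no Myc highest. High Myc lay wholly below low Myc for 4.66% of all genes, and below no Myc for 17.8%. How many genes had low Myc wholly below no Myc was not counted, and for no inhibitor was that difference called. NFKBIA encodes IkB-alpha, the inhibitor that NF-kappaB resynthesises after each activation, and lies at chr14:35401513-35404749. It read 1909, 4172, 3270 and 1930 in high Myc, 5310, 4471 and 5362 in low Myc, and 7306 and 6826 in no Myc. No group overlapped another, and replicates 1 and 4 were the lowest of the high Myc arrays. NFKBIA was 2.65-fold lower in high Myc (11.38 ± 0.56 with SD, n = 4) than in no Myc (12.79 ± 0.07, n = 2), at -1.41 ± 0.30 (limma, adjusted p = 0.00829). That call was lost without either no Myc array, with adjusted p of up to 0.0733. High Myc was below low Myc (12.30 ± 0.15, n = 3) by 0.92 in the mean (-0.92 ± 0.27, adjusted p = 0.102), and by -1.13 and called without high Myc replicate 2 (adjusted p = 0.017). The low Myc difference from no Myc was -0.49 ± 0.32 (adjusted p = 0.409). A dim probe set of the gene, 231699_at, read 62 to 98 on all arrays.

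NFKBIE encodes IkB-epsilon, a delayed feedback inhibitor prominent in B cells, and lies at chr6:44258166-44265551. Its intensities were 357, 838, 638 and 353 in high Myc, 1200, 948 and 913 in low Myc, and 1226 and 1398 in no Myc. The groups did not overlap, in the same order as for NFKBIA. NFKBIE was 2.57-fold lower in high Myc (8.99 ± 0.62 with SD, n = 4) than in no Myc (10.35 ± 0.13, n = 2), at -1.36 ± 0.34 (limma, adjusted p = 0.0171), a call lost without either no Myc array (adjusted p up to 0.114). The difference from low Myc was -0.99 ± 0.30 (adjusted p = 0.113), and -1.23 without high Myc replicate 2 (adjusted p = 0.02). Low and no Myc differed by -0.37 ± 0.36 (adjusted p = 0.638).

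TNFAIP3 encodes A20, the ubiquitin-editing enzyme that shuts off signalling upstream of IKK, and lies at chr6:137866349-137883312. It read 332, 1103, 902 and 344 in high Myc, 1262, 1336 and 1438 in low Myc, and 1720 and 1543 in no Myc. High Myc replicates 1 and 4 were low, replicates 2 and 3 came near the low Myc arrays, and no group overlapped another. TNFAIP3 was 2.81-fold lower in high Myc (9.18 ± 0.91 with SD, n = 4) than in no Myc (10.67 ± 0.11, n = 2), at -1.49 ± 0.47 (limma, adjusted p = 0.0489). This call sat at the threshold: it held in 2 of the 9 leave-one-out fits, those without high Myc replicate 2 or 3, and reached adjusted p = 0.236 in the others. It was also lost with arrays centred on the median (adjusted p = 0.0673), the median of its probe sets (0.0665), each probe set tested over all probe sets (0.0677), array weights (0.0673) and only the 2 groups in the fit (0.0965). Against low Myc (10.39 ± 0.09, n = 3) the difference was -1.21 ± 0.41 (adjusted p = 0.162), and -1.52 without high Myc replicate 2 (adjusted p = 0.0406). A further probe set, 202643_s_at, read 222, 793, 565 and 197 in high Myc, 875, 906 and 899 in low Myc, and 1198 and 905 in no Myc, and was not called in any comparison.

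Among the target genes, TRAF1 and BCL2A1 had the widest differences and also the widest spread. TRAF1, an adaptor that extends signalling from TNF receptors and is itself induced by NF-kappaB, lies at chr9:120902393-120929171. It read 275, 1585, 802 and 420 in high Myc, 3032, 1856 and 3029 in low Myc, and 1859 and 2426 in no Myc. All high Myc arrays were below all others, and the low and no Myc arrays overlapped. High Myc differed by -1.78 ± 0.59 from no Myc (limma, adjusted p = 0.062) and by -2.06 ± 0.52 from low Myc (adjusted p = 0.0702), neither of them called. Without high Myc replicate 2 both were, at -2.23 (adjusted p = 0.00594) and -2.51 (adjusted p = 0.00675). A dimmer TRAF1 probe set, 235116_at, was called lower in high than in no Myc (-2.19 ± 0.59, adjusted p = 0.0356), with 55, 276, 137 and 70 against 451 and 550, and read 483, 274 and 560 in low Myc.

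BCL2A1, a BCL2-family survival protein of activated B cells, lies at chr15:79960892-79971196. The arrays gave 286, 1580, 743 and 272 in high Myc, 2052, 2190 and 1873 in low Myc, and 2102 and 2068 in no Myc. The low and no Myc arrays lay together, and all high Myc arrays were below them, from 272 to 1580. The differences were -1.92 ± 0.62 against no Myc (limma, adjusted p = 0.0541) and -1.89 ± 0.55 against low Myc (adjusted p = 0.101), and -2.43 (adjusted p = 0.00281) and -2.40 (adjusted p = 0.00563) without high Myc replicate 2. Low and no Myc differed by -0.04 ± 0.65 (adjusted p = 0.988).

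CFLAR encodes c-FLIP, which blocks caspase-8 at death receptors, and lies at chr2:201116164-201176687. Its brightest probe set, 209939_x_at, read 438, 1686, 1208 and 475 in high Myc, 2077, 1968 and 1642 in low Myc, and 1459 and 1757 in no Myc. High Myc replicate 2 fell among the low and no Myc arrays, and replicates 1, 3 and 4 were below them. High Myc differed from no Myc by -0.99 ± 0.50 (limma, adjusted p = 0.24) and from low Myc by -1.23 ± 0.44 (adjusted p = 0.191), and without high Myc replicate 2 by -1.34 (adjusted p = 0.0429) and -1.58 (adjusted p = 0.0375). With the median of its probe sets, the difference from no Myc was called, at -1.54 (adjusted p = 0.00168).

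CFLAR has 14 probe sets, and they did not give a single picture of the low and no Myc groups. On 209939_x_at, 210563_x_at and the dim 214618_at the low Myc mean was above no Myc, by 0.24, 0.27 and 0.23, and none of these was called (limma over all probe sets, adjusted p = 0.901, 0.894 and 0.662). On 4 other probe sets low Myc was called lower than no Myc: 211316_x_at (-1.13, adjusted p = 0.00464), 211317_s_at (-0.90, adjusted p = 0.0361), 214486_x_at (-0.77, adjusted p = 0.00453) and 235427_at (-0.70, adjusted p = 0.0135). These 4 are all the member probe sets that were called between low and no Myc. Probe set 211316_x_at read 193, 246, 220 and 163 in high Myc, 345, 272 and 339 in low Myc, and 644 and 752 in no Myc, so that the groups formed 3 separate steps. Probe set 239629_at had the widest difference between high and no Myc (-2.50 ± 0.44, adjusted p = 0.00503), with 74, 179, 206 and 72 in high Myc, 295, 289 and 211 in low Myc, and 608 and 741 in no Myc. CFLAR is known for several splice forms, and probe sets ending in x_at can also read other transcripts; which transcripts each probe set reads was not determined, and the difference between probe sets was not tested.

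**Figure D3:**
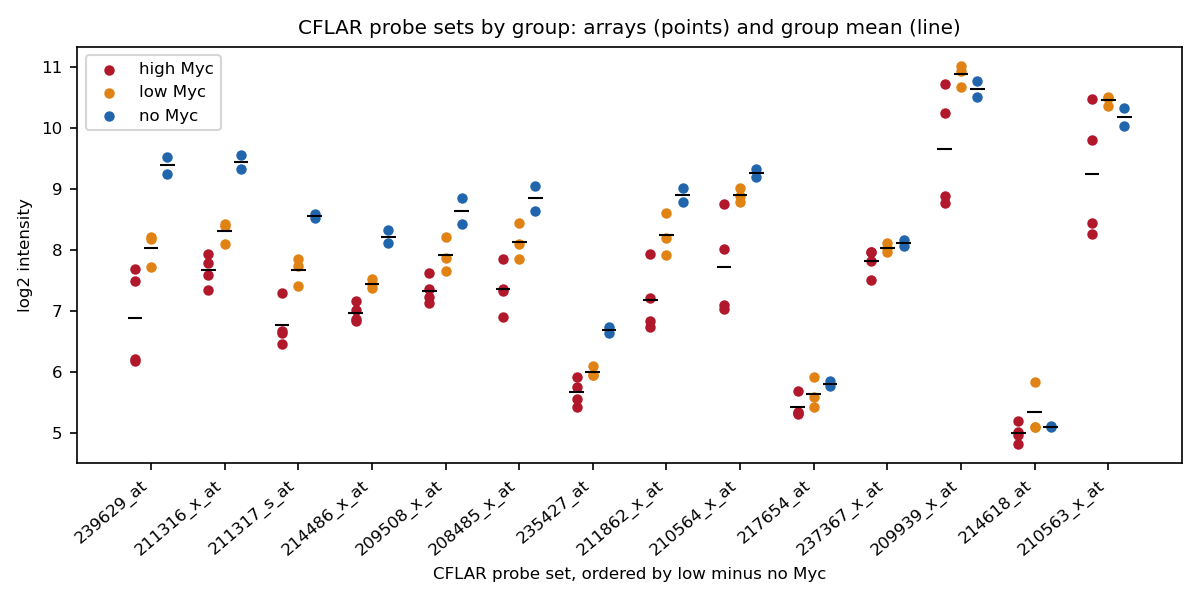
Log2 intensity of the 14 CFLAR probe sets (horizontal axis, ordered by the low minus no Myc difference); points are arrays, lines are group means. On the left, no Myc lies above low Myc, by 1.36 on 239629_at and 1.13 on 211316_x_at, and on 209939_x_at, 210563_x_at and 214618_at at the right it lies below low Myc on average.

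The counts of called members turned on single arrays. Without high Myc replicate 2, 9 members were lower than in no Myc (all but NFKB1) and 9 lower than in low Myc (all but RELB). Over all genes, calls in either direction then went from 4584 to 4250 against no Myc, and from 712 to 1204 against low Myc. That array held the highest high Myc value for 9 of 10 members, so leaving it out had to lower their high Myc means. Shares of all genes lower are not given for these refits. Without the library labelled no Myc replicate 1, or without no Myc replicate 2, REL was the 1 member still called against no Myc, in fits where the lone no Myc array was assumed to vary as the other groups do. With both doubted arrays left out, high Myc replicate 2 and the library labelled no Myc replicate 1, 5 members were lower than in no Myc (REL, NFKBIA, NFKBIE, TRAF1 and BCL2A1). The count against low Myc was then 6, with NFKB1 added to the same 5.

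Within the high Myc group the members varied together. Relative to the mean of the low Myc arrays, the median member was at -1.76 on high Myc replicate 1, -0.27 on replicate 2, -0.65 on replicate 3 and -1.61 on replicate 4 (log2). The medians of all genes on the same arrays were -0.01 to 0.03. On the other arrays the median member stayed between -0.03 and 0.10. Replicate 2 was thus near the low Myc level and replicates 1 and 4 far below it.

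Replicate 2 gave the highest of the 4 high Myc values for 9 of 10 members (replicate 3 for RELB), and for 24.1% of all genes. Replicate 1 gave the lowest for 7 members and replicate 4 for the other 3. The highest high Myc array exceeded the lowest 5.81-fold for BCL2A1, 5.77-fold for TRAF1, 4.73-fold for NFKB2, 3.85-fold for CFLAR and 3.33-fold for TNFAIP3, and 1.31-fold for REL. The median SD of the members was 0.77 in high Myc and 0.16 in low Myc, while over all genes it was 0.15 and 0.18. An SD in high Myc as wide as that of BCL2A1 was met by 0.334% of all genes, as that of TRAF1 by 0.435%, and as that of REL by 35.6%. MYC did not follow this order, being lowest on replicate 2 (11326) and highest on replicate 3 (15404).

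**Figure D4:**
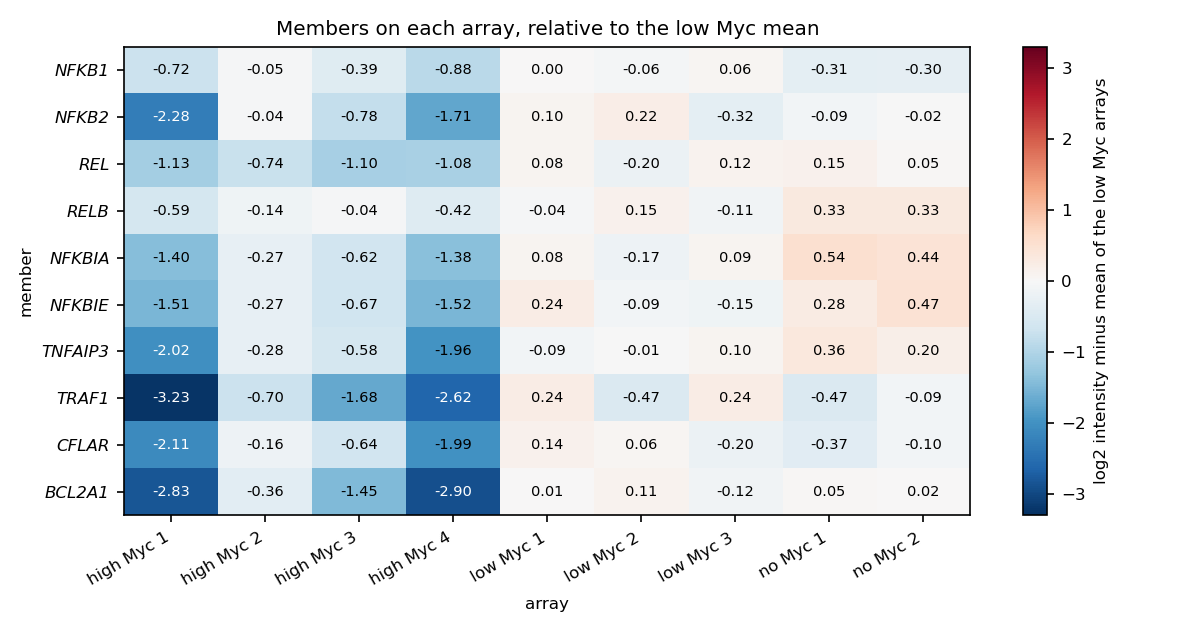
Log2 intensity of each member (rows) on each array (columns) minus the mean of the low Myc arrays; blue is lower and red higher, with the value printed in each cell. High Myc replicates 1 and 4 reach -3.23 (TRAF1) and -2.90 (BCL2A1), while replicate 2 stays between -0.74 (REL) and -0.04 (NFKB2).

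Pearson correlations between members over the 9 arrays had a median of 0.90 over 45 pairs, from 0.55 (NFKB1 with RELB) to 0.98. By rank (Spearman) they ran from 0.26 (NFKB1 with RELB) to 0.98 (NFKBIA with TNFAIP3). Most pairs were lower by rank, such as TNFAIP3 with CFLAR (0.55 against 0.95). Some were higher, such as REL with TNFAIP3 (0.90 against 0.84). The arrays share their groups and the spread within high Myc, so these values describe the set only. By Pearson correlation, 5428 genes with a mean log2 of at least 6 and a range of at least 1 were compared. The nearest to TRAF1 was ICAM1, an adhesion molecule (0.994), and the nearest to NFKBIA was IER5 (0.99). CD44, the hyaluronan receptor, was nearest to TNFAIP3 (0.98), and SRGN, a granule proteoglycan, to BCL2A1 (0.983). BCL2A1 was followed by BCL2 (0.982) and MALT1, a protease of the antigen receptor route to NF-kappaB (0.98). For the subunits the nearest were B4GALT6 to NFKB1 (0.973), FSCN1, an actin-bundling protein, to NFKB2 (0.986), SNX29 to REL (0.983) and CTSH, a lysosomal protease, to RELB (0.984). Members were among each other's 3 nearest in 5 cases: NFKBIA and NFKBIE (0.981, each to the other), NFKB2 and CFLAR (0.98, each to the other), and BCL2A1 to TNFAIP3 (0.977).

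The rest of the pathway was read from 6 lists of 115 other genes, of which 107 were measured. In high against no Myc 36 were lower and 3 higher (median -0.46), in low against no Myc 21 lower and 10 higher (median -0.12), and in high against low Myc 13 lower and 1 higher (median -0.36), against the shares of all genes given above. High Myc replicate 2 was the highest high Myc array for 58 of the 107 (54.2%). Genes named below were, per list and comparison, the called genes with the largest differences, at most 4.

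RELA and the other IkB-family genes (4 measured of 5) had 2 lower in high than in no Myc. NFKBIZ, a nuclear IkB that steers target choice, read 393, 1110, 741 and 494 in high Myc, 1984, 1094 and 1929 in low Myc, and 2431 and 2239 in no Myc. It fell by 1.88 against no Myc on the log2 scale (-1.88 ± 0.40, limma, adjusted p = 0.00759), a call lost on leaving out the library labelled no Myc replicate 1 (at adjusted p = 0.0687). NFKBID, another nuclear IkB, was lower than in no Myc both in high Myc (-1.39 ± 0.25, adjusted p = 0.00365) and in low Myc (-1.16 ± 0.27, adjusted p = 0.0143), and both calls were lost without that same library (adjusted p up to 0.0528 and 0.14).

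In the IKK complex and its kinases (11 measured of 11), 4 were lower in high than in no Myc, 3 in low than in no Myc, and 0 between high and low Myc. IKBKB, the IKK-beta kinase that phosphorylates IkB-alpha, read 487, 396, 387 and 399 in high Myc, 538, 487 and 440 in low Myc, and 1219 and 1022 in no Myc. The no Myc arrays were above all others, with differences of -1.43 ± 0.14 for high Myc (limma, adjusted p = 0.000207) and -1.20 ± 0.14 for low Myc (adjusted p = 0.000909), both called in all 9 leave-one-out fits. IKBKE was lower by smaller amounts (-0.49 ± 0.10, adjusted p = 0.00712, and -0.66 ± 0.11, adjusted p = 0.00293), the former a call lost without either no Myc array. MAP3K8, a kinase released from p105, was 3.75-fold lower in high than in no Myc (-1.91 ± 0.45, adjusted p = 0.0138), a call lost on leaving out the library labelled no Myc replicate 1 (at adjusted p = 0.138). MAP3K14, the NIK kinase of the non-canonical pathway, differed by -0.66 ± 0.19 there (adjusted p = 0.0343, called in 4 of 9 leave-one-out fits), and MAP3K7, the TAK1 kinase, by -0.58 ± 0.15 in low against no Myc (adjusted p = 0.0262), a call lost without the library labelled no Myc replicate 1.

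Of the adaptors and ubiquitin machinery (14 measured of 18), 5 were lower and 1 higher in high than in no Myc. MYD88, the adaptor of Toll-like and interleukin 1 receptors, read 1462, 1471, 1402 and 1326 in high Myc, 1134, 1244 and 934 in low Myc, and 3852 and 2248 in no Myc. It was lower than in no Myc in both other groups (-1.06 ± 0.20, limma, adjusted p = 0.00448, and -1.42 ± 0.21, adjusted p = 0.002), called in all 9 leave-one-out fits. IRAK1, the kinase next to MYD88, went the other way at 2067, 2047, 1888 and 1763 in high Myc, 954, 1563 and 939 in low Myc, and 910 and 960 in no Myc. IRAK1 was 2.07-fold higher in high than in no Myc (1.05 ± 0.20, adjusted p = 0.00422, called in all 9 such fits) and 1.73-fold above low Myc (0.79 ± 0.17, adjusted p = 0.0439, called in 1 of 9, that without low Myc replicate 2). PRKCB, which links the antigen receptor to IKK, read 1147, 1637, 522 and 860 in high Myc against 2552, 2599 and 2387 in low Myc and 3043 and 2595 in no Myc. Its difference from no Myc was -1.55 ± 0.36 (adjusted p = 0.0129), and BCL10 of the same route was at -0.98 ± 0.25 (adjusted p = 0.02). The call of PRKCB was lost without either no Myc array, and that of BCL10 on leaving out the library labelled no Myc replicate 1. In low against no Myc, RBCK1 (-0.69 ± 0.18, adjusted p = 0.0227) and TRADD (-0.53 ± 0.14, adjusted p = 0.031) were lower, each called in 5 of the 9 leave-one-out fits.

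Among negative regulators (12 measured of 13), 3 were lower in high than in no Myc, by nearly the same amount: TANK (-0.94 ± 0.25, limma, adjusted p = 0.0226), TAX1BP1, an A20 partner (-0.94 ± 0.22, adjusted p = 0.0123), and TRAF3IP3 (-0.93 ± 0.19, adjusted p = 0.00666). The calls of TANK and TAX1BP1 were lost without either no Myc array, and that of TRAF3IP3 without no Myc replicate 2. TNIP3, which binds A20, was raised in low Myc, with 141, 136 and 83 against 25, 34, 24 and 30 in high Myc and 27 and 27 in no Myc. The differences were 2.08 ± 0.24 from no Myc (adjusted p = 0.000772) and -2.06 ± 0.20 for high against low Myc (adjusted p = 0.00189), both called in all 9 leave-one-out fits, but their size is not exact, since the dimmer groups read below a mean log2 of 5.

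The receptors that signal to NF-kappaB (20 measured of 20) split. In high against no Myc 6 were lower and 1 higher, in low against no Myc 6 lower and 3 higher, and in high against low Myc 2 lower. TLR1, a Toll-like receptor for bacterial lipopeptides, read 64, 64, 36 and 49 in high Myc, 64, 62 and 64 in low Myc, and 375 and 224 in no Myc. It was 5.56-fold lower in high Myc (-2.47 ± 0.26, limma, adjusted p = 0.000306) and 4.55-fold lower in low Myc (-2.19 ± 0.28, adjusted p = 0.00107), both called in all 9 leave-one-out fits. TLR10 (-1.68 ± 0.30, adjusted p = 0.00358) and TLR7, a receptor for single-stranded RNA (-1.32 ± 0.27, adjusted p = 0.00645), were lower in high than in no Myc, a call lost for TLR7 on leaving out the library labelled no Myc replicate 1. TLR9, a receptor for bacterial DNA, was lower in low than in no Myc (-1.64 ± 0.43, adjusted p = 0.0271, called in 5 of 9 leave-one-out fits). TNFRSF4, the OX40 costimulator, was higher in high than in no Myc (1.03 ± 0.26, adjusted p = 0.0199), a call lost without either no Myc array or high Myc replicate 3.

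IL18R1 and IL1R1, both of the interleukin 1 receptor family, read highest on the low Myc arrays, though IL1R1 on low Myc replicate 2 was close to high Myc replicate 2. IL18R1, the interleukin 18 receptor, read 506, 364 and 502 in low Myc, 36 and 44 in no Myc, and 25, 227, 29 and 38 in high Myc. Only high Myc replicate 2 of the 6 arrays outside low Myc was above 44. IL18R1 was 11.3-fold higher in low than in no Myc (3.50 ± 0.80, limma, adjusted p = 0.0143), a call lost without either no Myc array (adjusted p up to 0.105). High Myc was 9.07-fold lower than low Myc (-3.18 ± 0.67, adjusted p = 0.0384), called in 1 of 9 leave-one-out fits, that without high Myc replicate 2, where the difference was -3.91. IL1R1 read 124, 47 and 83 in low Myc, 16 and 19 in no Myc, and 18, 43, 17 and 18 in high Myc. Its differences of 2.19 ± 0.47 from no Myc (adjusted p = 0.0106) and -1.82 ± 0.39 for high against low Myc (adjusted p = 0.0417) are not exact at such intensities. The former was lost on leaving out the library labelled no Myc replicate 1, and the latter held in 2 of the 9 such fits.

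Of other NF-kappaB target genes (46 measured of 48), 16 were lower and 1 higher in high than in no Myc, 8 lower and 6 higher in low than in no Myc, and 10 lower in high than in low Myc. LTB, the lymphotoxin that drives lymphoid tissue formation, read 1081, 261, 1482 and 952 in high Myc, 134, 457 and 192 in low Myc, and 5810 and 3771 in no Myc. The no Myc arrays were above all others, and within high Myc replicate 2 was lowest, the reverse of the members. LTB was 20.6-fold lower in low than in no Myc (-4.36 ± 0.72, limma, adjusted p = 0.00326, called in all 9 leave-one-out fits). In high Myc it was 5.89-fold lower than in no Myc (-2.56 ± 0.69, adjusted p = 0.0248), a call lost without either no Myc array. CCL17, a chemokine for T cells, was lower than in no Myc by -2.43 ± 0.45 in high Myc (adjusted p = 0.00412, lost without no Myc replicate 2) and -2.78 ± 0.48 in low Myc (adjusted p = 0.00378).

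TNFAIP2 read 614, 1124, 1110 and 616 in high Myc, 1007, 983 and 726 in low Myc, and 2704 and 2752 in no Myc. The high Myc difference from no Myc, -1.72 ± 0.28, was called in all 9 leave-one-out fits (limma, adjusted p = 0.00223). JUNB, an AP-1 subunit, differed by -1.45 ± 0.33 (adjusted p = 0.0113), a call lost without the library labelled no Myc replicate 1. It read 562, 1038, 795 and 534 in high Myc, 1837, 1201 and 1439 in low Myc, and 2642 and 1403 in no Myc.

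Some of the named targets read highest on the low Myc arrays: CD80, CCL20, CCL5, GADD45B and BATF3. Of the 46 targets 6 were called higher in low than in no Myc, beside 11.3% of all genes. High Myc replicate 2 came close to low Myc replicate 3 for CCL20 (208 against 210) and BATF3 (403 against 407). Tests against no Myc are not given for CD80, CCL5 and GADD45B, nor against high Myc for BATF3. CD80, a costimulatory ligand for T cells, read 1450, 1215 and 1582 in low Myc, 164, 708, 323 and 235 in high Myc, and 480 and 424 in no Myc. It was 4.59-fold lower in high than in low Myc (-2.20 ± 0.41, limma, adjusted p = 0.0271). CCL20, a chemokine for CCR6-bearing cells, read 1000, 542 and 210 in low Myc, 34, 208, 33 and 34 in high Myc, and 39 and 43 in no Myc. CCL20 was 11.8-fold higher in low than in no Myc (3.56 ± 0.86, adjusted p = 0.018) and 9.12-fold lower in high than in low Myc (-3.19 ± 0.72, adjusted p = 0.0478). CCL5, another chemokine (-1.39 ± 0.28, adjusted p = 0.034), and GADD45B, a stress protein (-1.22 ± 0.24, adjusted p = 0.0332), were also lower in high than in low Myc. BATF3, an AP-1 family factor, was higher in low than in no Myc (1.88 ± 0.39, adjusted p = 0.00931), with 461, 847 and 407 against 145 and 149. These calls were fragile: those of CD80 and CCL20 against low Myc held in 2 of the 9 leave-one-out fits and those of CCL5 and GADD45B in 1, with adjusted p of up to 0.166, while CCL20 and BATF3 against no Myc held in 6 and 7. Within high Myc, replicate 2 was the highest array for CD80, CCL20, CCL5 and GADD45B.

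**Figure D5:**
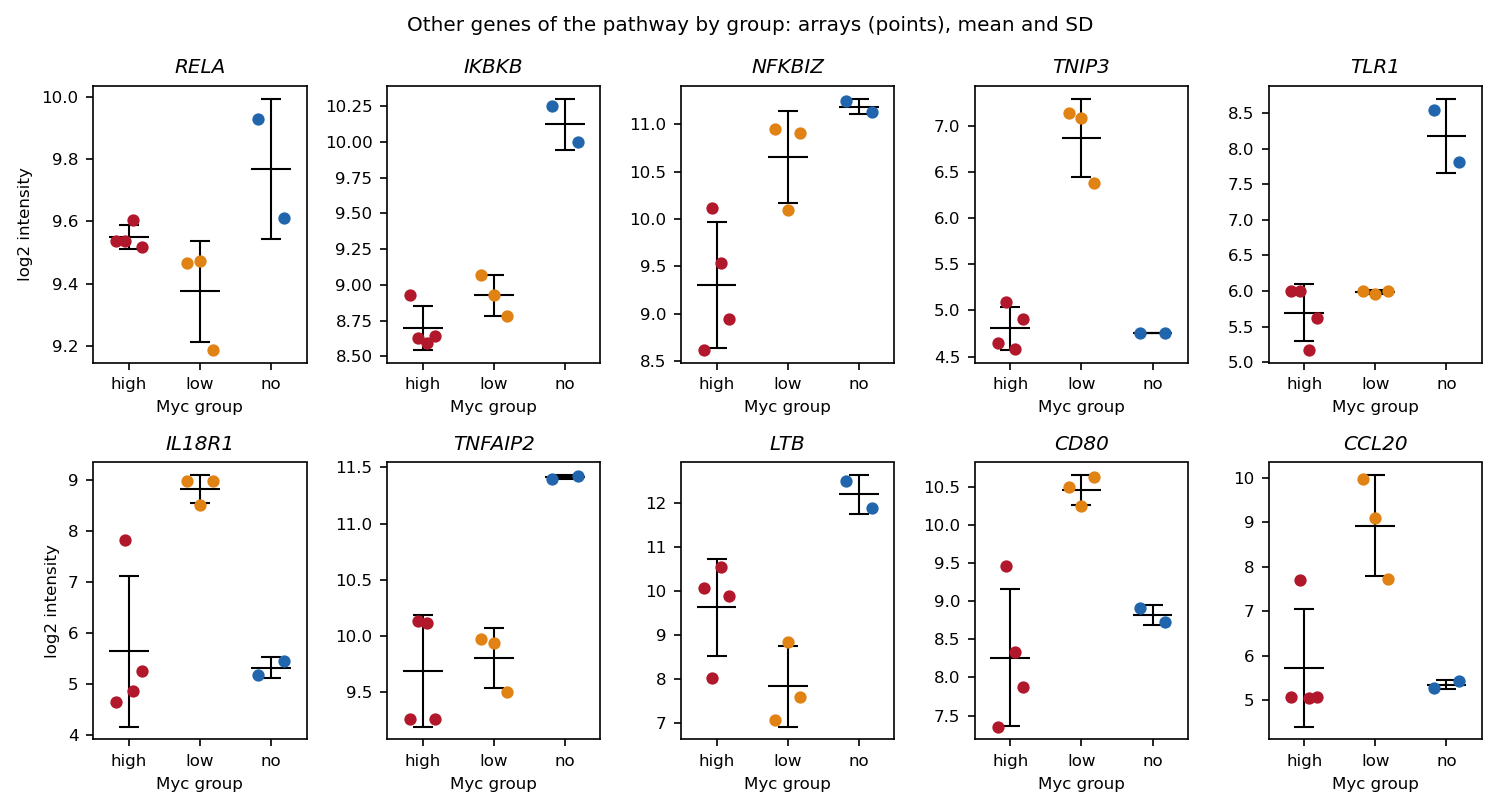
Log2 intensity of 10 other pathway genes by group; points are arrays, lines are means and bars are SD (n = 4, 3 and 2). IKBKB, TLR1 and TNFAIP2 stand higher in no Myc than on all other arrays, and TNIP3, IL18R1, CD80 and CCL20 are highest in low Myc.

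Markers of the cell type were checked beside these results. The B-cell genes MS4A1, CD79A and PAX5 read 760 or more on every array. Others were dim in some groups, such as CR2 (45 to 148 in high Myc, 61 and 47 in no Myc) and VPREB3 (77, 99 and 186 in low Myc). The 11 measured of 12 listed had summed intensities of 10130 to 18487 in high Myc and 14181 to 15839 in low Myc. In no Myc the sum was 32162 to 42834. Of these 11, 10 were called lower in high than in no Myc (all but CR2). In low against no Myc 7 were lower and 1, CR2, was higher (12.2-fold, limma, adjusted p = 0.00141). The 3 called lower in high than in low Myc were CR2 (10.4-fold), FCER2 (4.2-fold) and CD22 (1.71-fold). The 11 measured of 12 myeloid markers summed to 690 to 876 in high Myc, 647 to 762 in low Myc and 1995 to 2859 in no Myc. Of these, 2 were called lower in high and in low Myc than in no Myc, LYZ (775 and 333 in no Myc, at most 68 elsewhere) and ITGAM (1480 and 1069, at most 168 elsewhere), while CD14 read 35 to 50 on all arrays. T and NK cell markers summed to 901 to 1131 on all arrays, and fibroblast and epithelial markers to 1043 to 1621. Of the former, CD2 was called lower in high than in no Myc (-0.90, limma, adjusted p = 0.0431). Of the latter, CDH1 was called higher in low than in no Myc (3.22, adjusted p = 0.0154), with no Myc too dim for an exact size. Plasma cell markers summed to 9696 to 13807 in high Myc, 5695 to 9447 in low Myc and 9126 to 9978 in no Myc. Of the 9 plasma cell markers measured, XBP1 (0.74, adjusted p = 0.0415) and FKBP11 (2.32, adjusted p = 0.00307) were called higher in high than in no Myc. None was called lower there, though PRDM1 (-0.40), IRF4 (-0.45), TNFRSF17 (-0.43) and JCHAIN (-0.46) had lower means. JCHAIN, the joining chain of secreted antibodies, read 5408, 698, 3527 and 4265 in high Myc, 38, 348 and 166 in low Myc, and 3916 and 3660 in no Myc. High Myc replicate 2 was the lowest of its group and still above every low Myc array. JCHAIN was called 21.2-fold higher in high than in low Myc (limma, adjusted p = 0.0289) and 29.2-fold lower in low than in no Myc (adjusted p = 0.00905). Readings on this scale stay above 0 even for the dim T-cell marker TRAT1 (14 to 17). Whether a dim marker such as CR2 was absent was therefore not determined. Some B-cell, myeloid and plasma cell markers, and CD2 and CDH1, thus moved with groups that the members were compared between. The GAPDH end difference was highest on the no Myc arrays, and that of ACTB was not. The part of the markers and of RNA quality in the member differences was not tested.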

How the data were processed

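The data are 9 single-colour Affymetrix arrays, labelled with biotin after Qiagen RNeasy extraction, per the labels' protocols. The authors deposited 1 intensity per probe set on a linear scale, made with RMA per the submitters' processing notes (version not given in the sources used here). As that method makes array distributions alike, differences are relative within an array, and no change in total RNA can be seen. Log2 of the deposited intensity was used.

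Of 54675 probe sets, 41097 had 1 symbol, 1801 several and 11777 none. Symbols were updated through the Entrez identifier for 41043. A gene took its probe set with the highest mean, which gave 19775 genes, 10523 of them with several. No filter on low values was applied, so all 10 members and 32 probe sets were tested. A level below a mean log2 of 5 is too dim for an exact fold.

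All 9 arrays entered 1 fit of group means by limma 3.58.1 under R 4.3.3 (lmFit, eBayes, 6 residual degrees of freedom, two-sided), adjusted by Benjamini-Hochberg over all genes or, for probe sets, all probe sets, and called at an adjusted p under 0.05. The procedure was also run on simulated data, with independent noise and the same SD of a gene in all groups. The members differ from that, with a median SD of 0.77 in high and 0.16 in low Myc. The simulation therefore does not show how well their calls hold. Members, gene lists and tests were chosen with earlier results of these data known. Named genes were the members, MYC, RELA and at most 4 called genes with the largest difference per list and comparison. Genes among the 3 nearest to each member, and some of the markers that moved or were absent, were also named. Alternatives were repeated quantile normalization, median centring, a minimum mean log2 of 5, the median over probe sets, each probe set on its own, a robust prior with a trend, weights per array, fits of 2 groups alone, replicate numbers as a block, a threshold of 0.01 and each array left out. Leaving out both doubted arrays was added after seeing the data. Promoters came from RefSeq (GRCh38.p14).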

Additional observations from a re-analysis of the deposited data

Results flagged for a closer look

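Single arrays far from the others of their group were looked for in the high Myc group, the 1 group with enough arrays, for the 32 member probe sets and 35 pathway genes or MYC. Of these 67 sets of 4 values, 6 had an array whose gap to the nearest other exceeded the limit of Dixon's test, and chance alone gives about 1 in 20. The gap is given as a share of the range of the group. REL (235242_at) had its highest value on high Myc replicate 2, with a gap of 0.881. The dim CFLAR probe set 217654_at was highest on high Myc replicate 1 (0.922), as was IKBKB (0.874). On high Myc replicate 2, IL1R1 (0.927), CCL20 (0.975) and CCL5 (0.96) were far above the other high Myc arrays.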

How the results depend on the processing

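REL was called lower in high than in no Myc under every alternative run. Counts of calls that moved by over 1.5 times were as follows. Over all genes, high against no Myc gave 4584 calls, 3048 at an adjusted p under 0.01, 2353 without both doubted arrays, and 2714 to 4868 with 1 array left out. Low against no Myc gave 3919, then 2188, 1976 and 1855 to 4381. High against low Myc gave 712, with 435 over probe sets, 1684 with array weights, 406 with only these 2 groups, 143 at 0.01 and 228 to 1204 with 1 array left out. Members lower in high than in no Myc were 2 in place of 5 at 0.01 (REL and NFKBIA) and 1 to 9 with 1 array left out. Against low Myc the 1 member became 0 with the median of probe sets, 2 with array weights, 6 without both doubted arrays and 1 to 9 with 1 array left out. Member probe sets lower in high than in no Myc were 16, with 9 at 0.01 and 7 to 22 with 1 array left out, and in low than in no Myc 4, with 2 and 2 to 5. In high against low Myc they were 2, with 4 with array weights, 1 with only these 2 groups, 1 at 0.01, 11 without both doubted arrays and 1 to 17 with 1 array left out. In fits without 1 no Myc array the lone sample was assumed to vary like the others. The cause of each move was not tested, apart from the stricter threshold.

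For some members the difference between low and no Myc changed sign or reached 0 without passing the test. NFKB2, at 0.05, was -0.04 with repeated quantile normalization and ran from -0.06 (without low Myc replicate 2) to 0.22 with 1 array left out. REL, at -0.10, ran from -0.16 to 0.00 (without low Myc replicate 2). BCL2A1, at -0.04, was 0.01 with median centring and ran from -0.09 to 0.02 (without low Myc replicate 3). CFLAR went from 0.24 to -0.74 with the median of its probe sets. The MYC difference between low and no Myc, at 0.87, also turned on single arrays. It was -0.50 without no Myc replicate 2, and 2.25 on leaving out the library labelled no Myc replicate 1.

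The labels state no pairing by replicate number. Deviations of same-numbered arrays from their group means correlated between -0.31 and 0.47. Among the replicate 1 arrays they correlated at 0.25, 0.45 and 0.47. Differently numbered arrays were not compared, so whether the numbers pair the samples was not tested. With the replicate block, members lower in high than in no Myc were 2 (REL and NFKBIA) and their probe sets 10, and in high against low Myc 0 and 0 (REL at -0.99, adjusted p = 0.0681), with 154 genes called.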
